A study of Homo sapiens with 4 samples.

Results

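Rarely included cassette exons are exons that a cell leaves out of most copies of an mRNA but keeps in a few. In U87MG cells, a glioblastoma cell line, 1034 such exons were found in 874 genes, out of 57729 distinct exons in 84930 skipped exon events. They were chosen by their proportion spliced in (PSI, which is 0 where the exon is always skipped and 1 where it is always kept) in the 2 control libraries: at least 0.01 and under 0.1 from counts summed over both libraries, with at least 200 counts and a length of 28 to 499 nt. Where 1 exon had several such events, the event with most counts over the 4 libraries was kept. RNA-seq was done on 4 libraries, 2 from cells transfected with RBFOXi and 2 from cells transfected with SCRM, each by lipofection at 2.5 µM and described as independent biological replicates. RBFOXi is a 2′-O-methyl RNA decoy carrying repeats of the motif bound by RBFOX1 and RBFOX2, and SCRM is a scrambled oligonucleotide that served as the control. The label of RBFOXi replicate 1 names the dye Cy5 and the other 3 labels name no dye, and all libraries come from the 1 line.

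An exon is recognised through the 3′ splice site before it and the 5′ splice site after it, and proteins bound nearby raise or lower its use. RBFOX proteins bind UGCAUG in introns. Bound after an exon they generally favour its inclusion, and bound before it they generally favour skipping. An exon that is rarely kept can be a tissue-specific exon at its low end, or a so-called poison exon, which brings a premature stop codon and exposes the mRNA to nonsense-mediated decay. Poison exons are well known in the genes of SR and TRA2 proteins, which regulate splicing and limit their own amount in this way.

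The sequences that bear on the results come from the GRCh37 genome (hg19) and are written 5′ to 3′ on the strand of the gene. The RBFOX motif (UGCAUG in the RNA) stands in capitals, with T for U, in the last 60 nt of the intron before 4 exons, shown because the motif ends at most 27 nt from the exon: ADD3 (chr10:111892003-111892062, plus strand), CADPS (chr3:62516488-62516547, minus strand), MAP3K7 (chr6:91254352-91254411, minus strand) and MBNL2 (chr13:98017330-98017389, plus strand).
ADD3: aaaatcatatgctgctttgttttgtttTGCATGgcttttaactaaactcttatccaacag
CADPS: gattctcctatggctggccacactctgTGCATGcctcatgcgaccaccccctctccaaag
MAP3K7: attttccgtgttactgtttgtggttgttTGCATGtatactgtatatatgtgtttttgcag
MBNL2: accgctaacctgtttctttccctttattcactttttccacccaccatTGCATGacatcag

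The first 60 nt of the intron after 6 other exons are shown because the motif begins there, in capitals again: EPB41L1 (chr20:34783287-34783346, plus strand), MORF4L1 (chr15:79177426-79177485, plus strand), DIAPH1 (chr5:140898451-140898510, minus strand), LRRFIP2 (chr3:37146886-37146945, minus strand), SEC24C (chr10:75521925-75521984, plus strand) and TRA2B (chr3:185649305-185649364, minus strand). LRRFIP2 and SEC24C hold the motif a second time in this stretch.
EPB41L1: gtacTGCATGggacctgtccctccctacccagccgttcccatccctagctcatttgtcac
MORF4L1: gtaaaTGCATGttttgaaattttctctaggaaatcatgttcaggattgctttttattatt
DIAPH1: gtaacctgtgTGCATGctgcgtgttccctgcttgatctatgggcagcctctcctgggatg
LRRFIP2: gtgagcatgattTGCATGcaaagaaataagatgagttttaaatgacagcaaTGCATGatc
SEC24C: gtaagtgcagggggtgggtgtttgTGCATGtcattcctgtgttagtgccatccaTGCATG
TRA2B: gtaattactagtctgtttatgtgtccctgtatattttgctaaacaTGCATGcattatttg

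The start of 5 exons is shown up to 12 nt past the first stop codon in frame with the annotated coding sequence before it, with that codon in capitals: TRA2B (chr3:185649548-185649640, minus strand), SRSF3 (chr6:36567598-36567643, plus strand), SRSF7 (chr2:38976449-38976488, minus strand), SRSF4 (chr1:29486566-29486603, minus strand) and RPS9 (chr19:54710421-54710445, plus strand).
TRA2B: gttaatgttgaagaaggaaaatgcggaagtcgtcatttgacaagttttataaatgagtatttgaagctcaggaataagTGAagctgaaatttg
SRSF3: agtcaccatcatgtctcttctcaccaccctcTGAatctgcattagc
SRSF7: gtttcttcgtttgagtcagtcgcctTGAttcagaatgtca
SRSF4: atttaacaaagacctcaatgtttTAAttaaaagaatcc
RPS9: ccctcggaggTGAtgggtgtgaact

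The ACTN1 exon is shown whole (chr14:69345169-69345260, minus strand), in capitals, with the last 20 bases of the intron before it and the first 6 of the intron after it, as the exon with the clearest loss of inclusion. The length of its 66 nt is divisible by 3, and it carries no stop codon in frame.
ACTN1: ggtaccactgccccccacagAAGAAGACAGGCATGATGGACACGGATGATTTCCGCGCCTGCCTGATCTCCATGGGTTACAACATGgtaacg

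Each library held 114415530 to 136097319 counts in all skipped exon events together, and a read that fits several events is counted in each. SCRM replicate 1 was the shallowest library. The cells were called likely glioblastoma in the labels. VIM, CD44, FN1, TNC and NES, markers of glial and mesenchymal cells, had events with counts in all 4 libraries, and GFAP, S100B, SOX2 and OLIG2 had no event listed, so their levels could not be read from these tables. Of the epithelial and immune markers, ESRP2 alone had an event, with at most 7 counts in a library. The others had no event listed, so their levels could not be read either. Of the neuronal markers, SNAP25 (up to 808 counts), MAP2 (up to 642) and SYT1 (up to 91) had events. RBFOX3 and STMN2 had no event listed. The endothelial marker VWF had at most 19 counts in a library, and PECAM1 and CDH5 had no event listed.

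The rarely included exons were limited in length by the rule, and a low PSI leaves few inclusion counts. Their length had a median of 112 nt, with quartiles of 76 and 151 nt, against a median of 123 nt over all 43314 exons of the same length and depth range. The median was 120 nt at a SCRM PSI of 0.1 to under 0.9, and 113 nt under 0.01. The median count over the SCRM libraries was 567, against 612 at a SCRM PSI of 0.1 to under 0.9 and 1154 over all. The median SCRM inclusion count of the rarely included exons was 44. Per library, the median inclusion count was 24 and 35 with RBFOXi, and 14 and 29 with SCRM. The SCRM PSI that chose the exons had a median of 0.0327. The exons just inside the lower limit were in TNPO3 (0.0100239) and TULP3 (0.0100738), and those just outside it were in ARMCX6 (0.00998731) and IFT43 (0.00993646). At the upper limit, C5orf28 (0.0999482) and CARS (0.0998194) lay just inside, and NAP1L4 (0.10052) and SEC13 (0.10082) just outside. Of the exons, 55 overlapped another of them and 161 shared both flanking splice sites with another, so these share skipping reads. Through another event with other flanking exons, 78 also had a SCRM PSI of 0.1 or more.

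In the RBFOXi libraries, whose PSI did not enter the choice, these exons stayed rarely included. Counts of the RBFOXi libraries entered only where 1 of several events of an exon was kept. The median PSI was 0.0336 and 0.0389 with RBFOXi, and 0.0332 and 0.0324 with SCRM. Both RBFOXi libraries were under 0.1 for 893 exons (86.4%), and both were at 0.1 or more for 39 (3.77%). Both reached 0.2 for 3 exons. The mean PSI differed between the treatments by less than 0.02 for 776 exons (75%), while the median absolute difference between the 2 libraries of 1 group was 0.0123 for RBFOXi and 0.0128 for SCRM. Of the SCRM libraries, replicate 1 had 21 exons with a PSI over 0.15 and replicate 2 had 0. In SCRM replicate 1, DNAJB14 reached 0.448 on 25 counts.

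**Figure D1:**
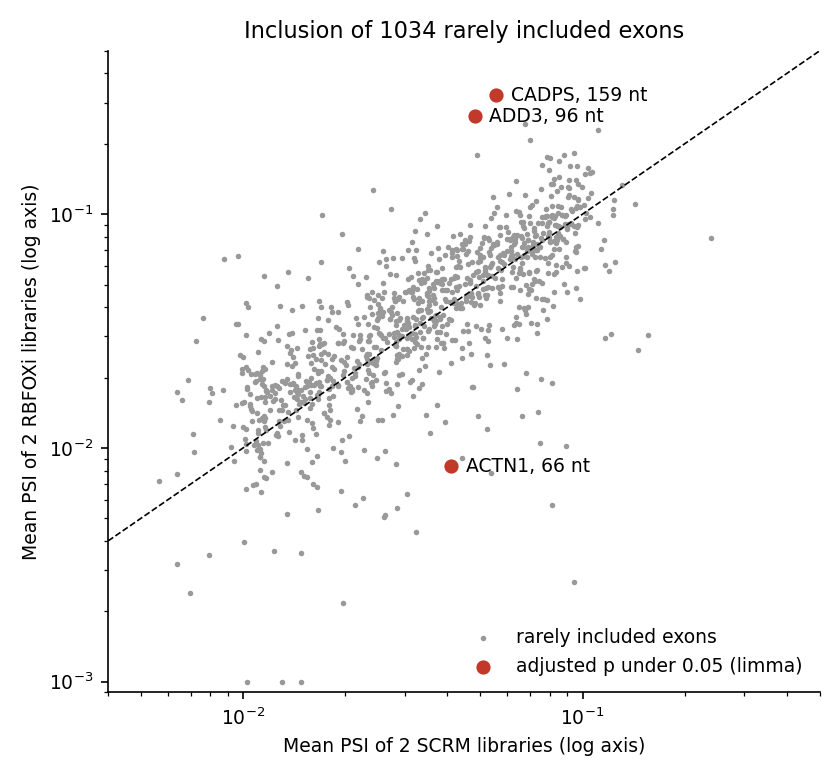
Mean PSI of each of the 1034 rarely included exons in the 2 SCRM libraries (horizontal, log axis) and the 2 RBFOXi libraries (vertical, log axis), with equality as the dashed line. 3 exons without inclusion counts in the RBFOXi libraries are drawn at 0.001. CADPS and ADD3 lie above the line and ACTN1 below it, in red.

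The deepest of these exons were in genes expressed in most cells. The 67 nt exon of PPIA, which encodes the prolyl isomerase cyclophilin A, had 171262 counts over the libraries. Its PSI was 0.0115 and 0.0187 with RBFOXi, and 0.0101 and 0.011 with SCRM, so that both RBFOXi libraries were above both SCRM libraries by little. The 88 nt exon of CTSB, the lysosomal protease cathepsin B, had a PSI of 0.0724 and 0.0616 with RBFOXi, and 0.087 and 0.0755 with SCRM, with the groups apart in the other direction. For the 220 nt exon of the NME1-NME2 readthrough gene (0.0256 and 0.031 against 0.0248 and 0.0317), the groups overlapped. The 33 nt exon of YWHAE, a 14-3-3 protein, (0.0204 and 0.0293 against 0.0216 and 0.0244) also overlapped. The 115 nt exon of SNRPD2, a core protein of spliceosomal snRNPs, had 0.0107264 and 0.0103292 with RBFOXi, against 0.0107284 and 0.0121565 with SCRM, so that the RBFOXi libraries were below the SCRM libraries by a margin seen only in the last digits. None of these 5 exons had an adjusted p-value under 0.05.

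What the rarely included exons shared beyond their PSI was first seen in the reading frame. The frame of the annotated coding sequence with the longest reading frame that runs to the end of the upstream exon was carried into the exon. A stop codon appeared inside 453 exons (43.8%), against 7.9% of all exons of the length and depth range. The share was 13.7% among exons with a SCRM PSI of 0.1 to under 0.9, 6.09% at 0.9 or more, and 55.3% under 0.01. Of all 43314 exons, 39452 had a SCRM PSI of 0.9 or more, and 91.1% of those were wholly coding in some transcript. A coding exon read in its own annotated frame normally holds no stop codon, so the low shares follow in part from the annotation. Another 117 of the rarely included exons (11.3%, against 46.8% of all) had a length not divisible by 3 and no stop codon in frame, called a frame shift here. That share was 25% among exons with a SCRM PSI of 0.1 to under 0.9. In 244 exons (23.6%, against 36%) the length was divisible by 3 and no stop codon was in frame. For the remaining 220 (21.3%, against 9.25%), the upstream exon was not coding in the annotation. A length divisible by 3 was found for 474 exons (45.8%), against 41.4% of all and 48.2% at a SCRM PSI of 0.1 to under 0.9.

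**Figure D2:**
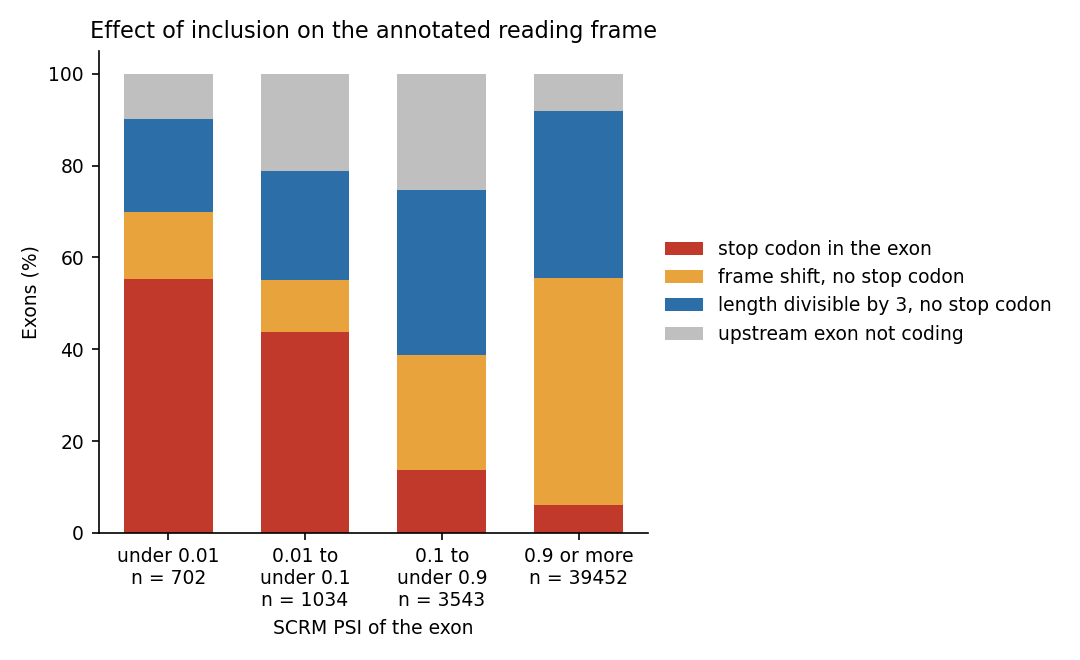
Share of exons (%) by the effect of their inclusion on the annotated reading frame, in 4 groups by SCRM PSI, with the number of exons under each bar. A stop codon in the exon takes 55.3% and 43.8% of the bars under a PSI of 0.1, and 13.7% and 6.09% of those above it.

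The annotation held 92.3% of the rarely included exons as exons with the same ends, against 98.9% of all exons. In 28.4% the whole exon was coding in some transcript, against 87% of all. That share was 65.8% at a SCRM PSI of 0.1 to under 0.9, and 23.9% under 0.01. An exon found in transcripts annotated to undergo nonsense-mediated decay and in no protein-coding transcript was present in 281 cases (27.2%), against 2.31% of all exons. This was 3.81% at a SCRM PSI of 0.1 to under 0.9, and 36.8% under 0.01. The introns beside the rarely included exons had medians of 2236 nt before and 2380.5 nt after the exon, against 2209 and 1968 nt over all exons. Exons with a SCRM PSI of 0.1 to under 0.9 had 2587 and 2402 nt, and those under 0.01 had 2256 and 2299.5 nt. Of the 1034 exons, 7 lay inside one of the 1290 listed retained introns, among them those of NUMA1 (54 nt, a spindle protein), SRSF2 and RPS9, given below with their introns. Reads of an unspliced intron would also count as inclusion of an exon inside it, and the part this plays was not tested.

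Splice site scores of the rarely included exons had lower medians than those of exons with a higher PSI. A score is the sum of log2 ratios of each base's frequency at flanking exons of all events to its frequency in introns, over 20 intron and 3 exon bases at the 3′ splice site and over 3 exon and 6 intron bases at the 5′ splice site. The 3′ score had a median of 7.7 (quartiles 5.36 and 9.89), against 8.51 over all exons. The 5′ score had a median of 7.1 (quartiles 5.12 and 8.74), against 8.16 over all. Exons with a SCRM PSI of 0.1 to under 0.9 lay between, at 8.09 and 7.74, and those under 0.01 were lower still at the 5′ site (6.58). The quartile ranges of all groups overlapped widely. A GC in place of the usual GT began the intron after 33 of the exons (3.19%), against 1.06% of all. That share was 1.78% at a SCRM PSI of 0.1 to under 0.9, and 4.99% under 0.01. The 3 exons with an adjusted p-value under 0.05 had 3′ scores of 6.46 (ACTN1), 5.94 (ADD3) and 3.39 (CADPS), all under the median of the group.

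**Figure D3:**
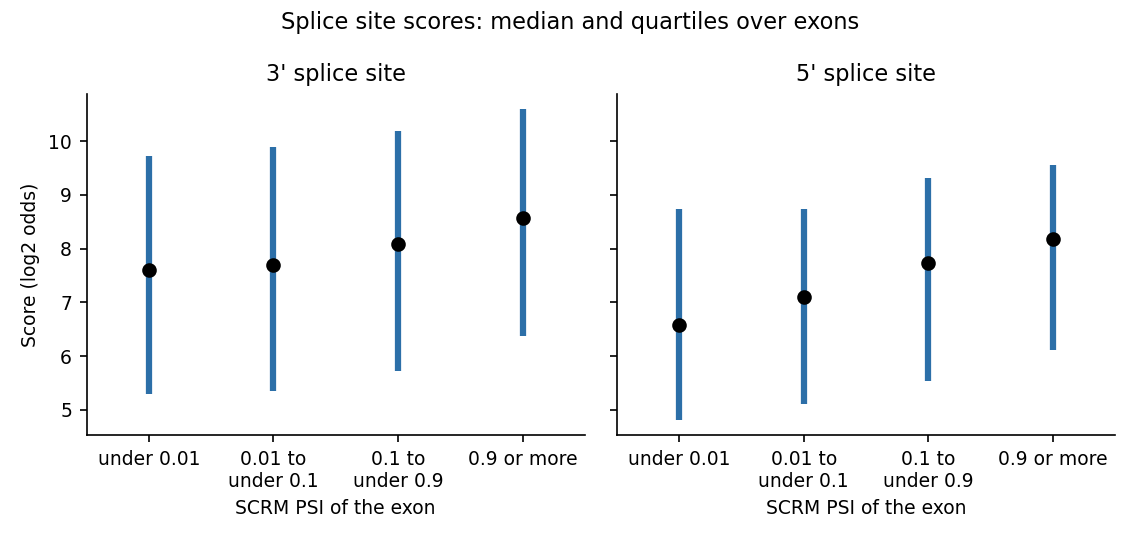
Median (points) and quartiles (bars) of the splice site score, in log2 odds, over exons in 4 groups by SCRM PSI, for the 3′ and the 5′ splice site. The medians rise from 7.6 to 8.57 at the 3′ site and from 6.58 to 8.19 at the 5′ site, with overlapping quartiles.

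UGCAUG lay within 300 nt after 104 of the exons (10.1%), against 8.27% of all exons, and within 300 nt before 103 (9.96%), against 7.98%. Exons with a SCRM PSI of 0.1 to under 0.9 were close to this, at 9.51% after and 9.99% before. The motif lay on both sides of 17 of the rarely included exons (1.64%, against 0.67% of all). The motif was searched on the strand of the gene only. In the whole intron after the exon the share was 54.2%, against 46.5% of all, and in the whole intron before it 49.5%, against 48.5%. At a SCRM PSI of 0.1 to under 0.9, the shares over the whole intron were 53.9% after and 52.5% before.

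The comparison of RBFOXi with SCRM asks which exons change when the decoy is present. It used limma on the log2 odds of inclusion over all 39615 skipped exon events with enough counts, with Benjamini-Hochberg adjustment over all of them. Of the 1034 exons, 1031 were tested, and 3 had an adjusted p-value under 0.05, against 0.0833% of all tested events. For 2 of these, the mean PSI also changed by at least 0.1 (0.0682% of all tested events). The SCRM values chose the exons, so these values are a description, and nothing is read here from the number or the direction of the calls. At an unadjusted p-value under 0.05, 50 exons were higher with RBFOXi and 33 lower, against 1.87% and 1.74% of all tested events. Both RBFOXi libraries were above both SCRM libraries for 219 exons (21.2%, against 14.3% of all tested events) and below them for 110 (10.7%, against 16.5%).

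The 96 nt exon of ADD3, which encodes the membrane skeleton protein adducin gamma, was at chr10:111892063-111892158. Its PSI was 0.207 and 0.318 with RBFOXi, and 0.0435 and 0.0528 with SCRM, so that the groups were far apart. The log2 odds of inclusion rose by 2.73 ± 0.42 (SE), with an adjusted p of 0.0289 (limma). SCRM replicate 1 rested on 6 inclusion counts. The 159 nt exon of CADPS, which acts in the release of dense-core vesicles, was at chr3:62516329-62516487. It had a PSI of 0.338 and 0.31 with RBFOXi, and 0.0327 and 0.0784 with SCRM, again with no overlap. Its log2 odds rose by 3.1 ± 0.50 (SE), with an adjusted p of 0.0386 (limma). In both genes UGCAUG ended 27 nt before the exon, as printed above, and none lay within 300 nt after it. Both calls were lost without SCRM replicate 1 (adjusted p 0.537 for ADD3 and 0.541 for CADPS) or SCRM replicate 2 (0.303 and 0.106). That of ADD3 was also lost without RBFOXi replicate 2 (0.0714).

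The 66 nt exon of ACTN1, which encodes the actin cross-linking protein alpha-actinin 1, went the other way, at chr14:69345175-69345240. Its PSI was 0.00848 and 0.00832 with RBFOXi, and 0.0469 and 0.0353 with SCRM. The RBFOXi libraries were almost equal and both far under the SCRM libraries. The exon's log2 odds fell by 2.31 with an SE of 0.35, with an adjusted p of 0.0289 (limma), on 2148 to 2948 counts per library. No UGCAUG was found within 300 nt on either side, and the nearest ended 447 nt before the exon. Its adjusted p was 0.715 without SCRM replicate 1, 0.265 without SCRM replicate 2, and 0.0579 with each library centred on its median log2 odds.

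The exons next in order of p-value, named after their values were seen, held both directions. The 81 nt exon of MAP3K7, the TGF-beta activated kinase TAK1, had a PSI of 0.115 and 0.0951 with RBFOXi, and 0.0336 and 0.0209 with SCRM, and an adjusted p of 0.228 (limma). UGCAUG ended 26 nt before it, and another began 113 nt after it. The 84 nt exon of CTTN, the actin-binding protein cortactin, had 0.00362 and 0.0067 with RBFOXi, and 0.0215 and 0.0308 with SCRM. Its groups did not overlap either, and its adjusted p was 0.256. In RAC1, a small GTPase, the 57 nt exon had 0.0256 and 0.0363 with RBFOXi, and 0.0601 and 0.0863 with SCRM (adjusted p 0.954, limma). This is the exon that makes the splice form known as RAC1b. For the 51 nt exon of TTC7B, the values were 0.00811 and 0.013 against 0.0681 and 0.082, on at most 16 inclusion counts in a library. The ADAM15 gene, a membrane metalloprotease, had 3 of these exons, of which the 72 nt exon at chr1:155034380-155034451 had 0.201 and 0.215 with RBFOXi, and 0.0783 and 0.0619 with SCRM. These 3 share the same skipping counts and are not independent of each other. The 137 nt exon of AGPAT4, an acyltransferase, had 0.16 and 0.326 with RBFOXi, and 0.0417 and 0.094 with SCRM, without overlap.

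The exons with the largest shifts that had not been called rested on few reads. LRRFIP2 (69 nt) had 0 inclusion counts of 138 and of 162 with RBFOXi, which allows shares of up to 2.17% and 1.85%, and 2 and 7 inclusion counts with SCRM. SYNRG (69 nt) had 0 of 152 and 0 of 218 with RBFOXi, allowing up to 1.97% and 1.38%, against 4 and 2 inclusion counts with SCRM. Neither exon passed the adjusted threshold in limma. A 42 nt exon of DEAF1, a transcription factor, was the other exon with 0 inclusion counts in both RBFOXi libraries, against 3 and 1 with SCRM. DNM1L (39 nt), a dynamin of mitochondrial fission, had a PSI of 0 and 0.00536 with RBFOXi, against 0.18 in SCRM replicate 1 and 0.00829 in SCRM replicate 2, so the difference rests on SCRM replicate 1. ATP11B (86 nt) had 0 and 0.0087 with RBFOXi, against 0.0438 and 0.0209. C17orf85 (33 nt) had 0.0274 and 0, against 0.0755 and 0.057. In the other direction, FKBP14 (92 nt, a prolyl isomerase of the endoplasmic reticulum) had 0.0652 and 0.188 with RBFOXi, against 0.0361 and 0.0121. TRMT11 (89 nt, a tRNA methyltransferase) had 0.0451 and 0.0632, against 0.00569 and 0.0174. In both exons the RBFOXi libraries were the higher ones. Such limits cover counting error only, since the reads carry no molecular identifiers.

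**Figure D4:**
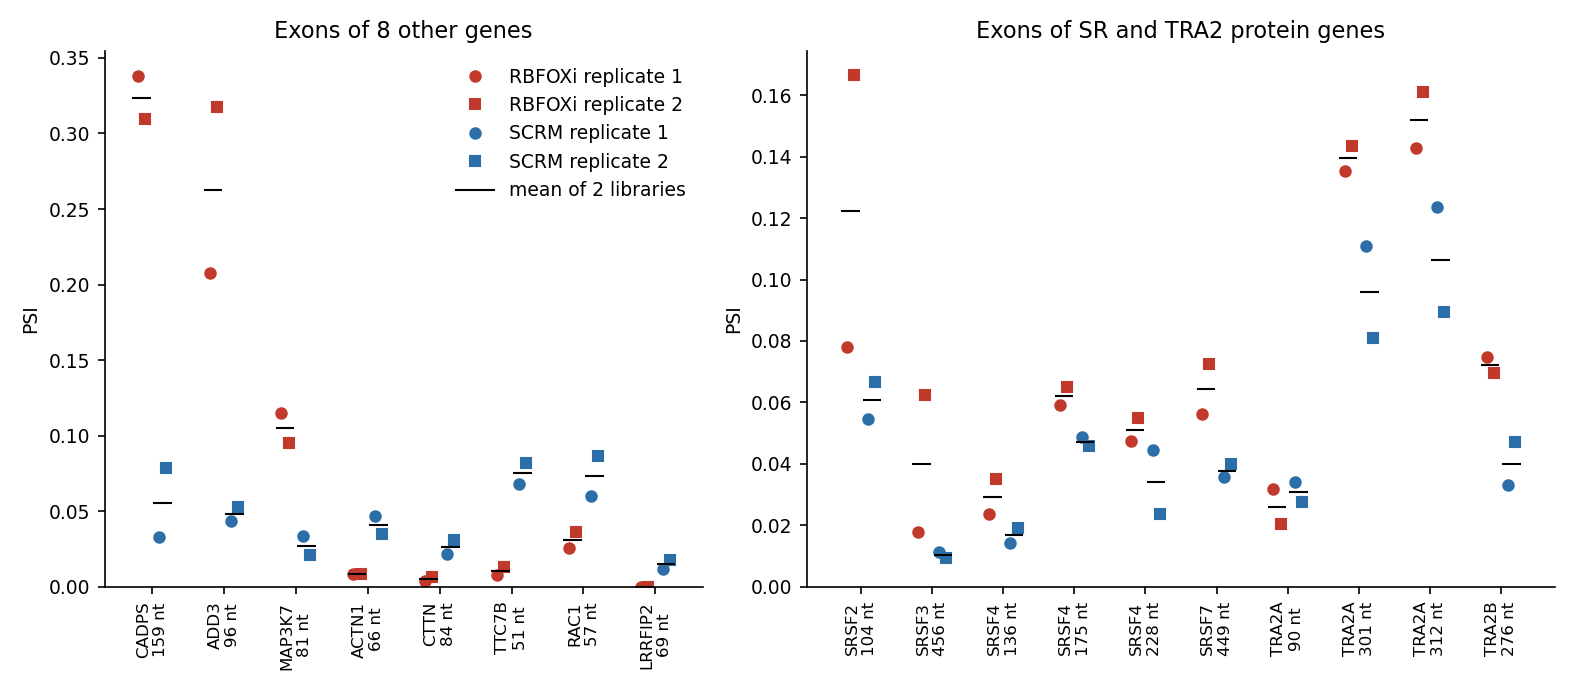
PSI of 8 single exons (left) and of the 10 rarely included exons of SR and TRA2 protein genes (right) in each library, with RBFOXi in red, SCRM in blue, circles for replicate 1, squares for replicate 2 and the mean of 2 libraries as a line. RBFOXi is above SCRM without overlap in CADPS, ADD3, MAP3K7 and 9 of the 10 exons on the right, and below it in ACTN1, CTTN, TTC7B, RAC1 and LRRFIP2.

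Exons with UGCAUG just after them had a median change below 0, and those with it just before them a median above 0. The windows of 100 nt after and 50 nt before the exon were chosen after the values were seen, and the differences are given without a test. UGCAUG began within 100 nt after 55 exons (5.32%, against 3.29% of all exons). Both RBFOXi libraries were below both SCRM libraries for 23 of these and above for 7, with a median change of -0.50 in log2 odds. Over all tested exons of the length and depth range with the motif in the same window, 31.3% were below and 9.2% above, with a median of -0.285. Exons with a SCRM PSI of 0.1 to under 0.9 were near the 41.8% below of the rarely included exons. They were below in 40.3% and above in 7.19%, with a median of -0.299. UGCAUG ended within 50 nt before 15 of the rarely included exons (1.45%, against 1.39% of all exons). Of these 15, 5 were higher without overlap and 0 lower, with a median change of 0.49. For all exons with the motif in that window, 23.5% were above and 13% below, with a median of 0.26. At a SCRM PSI of 0.1 to under 0.9, 33.3% were above and 8.7% below, with a median of 0.209. Among the 844 rarely included exons with no UGCAUG within 300 nt on either side, the median change was 0.15. For the rarely included exons, leaving out each library in turn kept the sign of both medians. These ranged from -0.43 to -0.27 after the exon and from 0.30 to 0.58 before it. As a scale, the median over all 39615 tested events was 0.06.

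**Figure D5:**
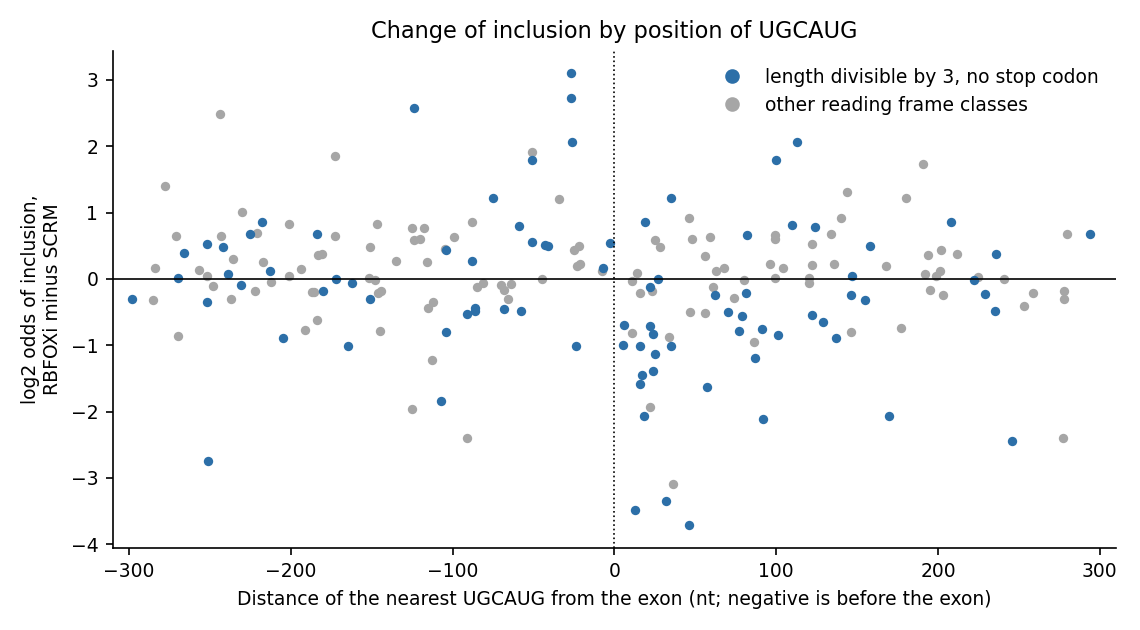
Change in log2 odds of inclusion (RBFOXi minus SCRM) of rarely included exons by the distance in nt of the nearest UGCAUG from the exon, negative before and positive after it, with exons of a length divisible by 3 and no stop codon in blue. An exon with the motif on both sides has a point on each. Of the 29 blue points in the first 100 nt after the exon, 25 lie under 0.

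The exons nearest to a motif are given exon by exon. The 36 nt exon of EPB41L1, a protein 4.1 of the membrane skeleton, has UGCAUG from base 5 of the intron after it. Its PSI was 0.0446 and 0.0479 with RBFOXi, and 0.107 and 0.0736 with SCRM. The 117 nt exon of MORF4L1, a chromatin protein, with the motif from base 6, had 0.0155 and 0.012 with RBFOXi, and 0.0274 and 0.0175 with SCRM. For the 53 nt exon of DIAPH1, a formin, with the motif from base 11, the PSI was 0.00783 and 0.00517 against 0.0105 and 0.0122. The RBFOXi libraries were the lower ones in all 3, with adjusted p-values of 1 (limma). SEC24C, a COPII coat protein, with the motif from base 25 after its 69 nt exon, had 0.0214 and 0.0374 with RBFOXi, and 0.0588 and 0.0613 with SCRM. Of the 55 exons with the motif beginning within 100 nt after them, 38 had lower log2 odds with RBFOXi and 17 higher. Among the 17 was CLIP1, a microtubule plus-end protein, whose 105 nt exon has the motif from base 35. It had 0.151 and 0.207 with RBFOXi, against 0.118 and 0.0581. Also among the 17 were TRA2B (276 nt, base 46) and TRA2A (312 nt, base 48, and 301 nt, base 59). The ADAM15 exon given above, with the motif from base 100, was higher as well. Of the exons with the motif closest before them, the 45 nt exon of ASPH (3 nt) had 0.0145 and 0.0249 against 0.00976 and 0.0171. The 36 nt exon of MBNL2 (7 nt) had 0.0591 and 0.00845 against 0 and 0.0193. The groups overlapped in both. SEC24C, CLIP1 and the TRA2B, TRA2A and ADAM15 exons named with it were picked after their values were seen.

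The reading frame classes were also described between the treatments. Among the 453 exons with a stop codon, both RBFOXi libraries were above both SCRM libraries for 108 (23.8%) and below for 28 (6.18%). Their median change was 0.24 in log2 odds. Over all rarely included exons, 21.2% were above and 10.7% below. Over all tested exons of the length and depth range with a stop codon, 19.6% were above and 11% below. The median PSI of the 453 exons was 0.0303 and 0.0388 with RBFOXi, and 0.0283 and 0.0274 with SCRM, so RBFOXi replicate 2 stood highest. Without it the median change was 0.07, and without RBFOXi replicate 1 it was 0.39. Among the 244 exons of a length divisible by 3 without a stop codon, 49 were above and 47 below, with a median of -0.01. That median ranged from -0.11 to 0.09 as each library was left out. Within this class, the 48 exons with UGCAUG in the 300 nt after them had 7 above and 20 below and a median of -0.60, against 42 above, 27 below and 0.04 for the other 196. With a stop codon and the motif in that window, 9 of 30 exons were above and 3 below. Exons with a stop codon and a SCRM PSI of 0.1 to under 0.9 had a median change of 0.15, close to the 0.15 of those that shift the frame and above the 0.08 of those with a length divisible by 3. None of these differences between classes was tested.

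The genes of SR and TRA2 proteins held 10 of these exons, in 6 genes, and 8 of the 10 carried a stop codon in frame. Both RBFOXi libraries were above both SCRM libraries for 9 of the 10, and 0 passed an adjusted p of 0.05 by limma, with 6 at an unadjusted p under 0.05, all higher. Over all rarely included exons, 21.2% were above without overlap and 4.85% higher at that unadjusted threshold, against 14.3% and 1.87% of all tested events. By a quasi-binomial F test, chosen after the data were seen, TRA2B and SRSF7 passed, with adjusted p-values of 0.0325 and 0.0282. SRSF3 did not pass it (adjusted p 0.408, quasi-binomial F test). The quasi-binomial test passed 7 of all rarely included exons, MAP3K7 (0.0339) among them, against 3 by limma. The list was known from earlier results of these data, the TRA2A exons of 301 and 312 nt overlap, and the 3 TRA2A exons and 2 of the SRSF4 exons share their skipping counts with each other, so the 10 are not independent. The 276 nt exon of TRA2B had a PSI of 0.0747 and 0.0696 with RBFOXi, and 0.0331 and 0.047 with SCRM. The 449 nt exon of SRSF7 had 0.0561 and 0.0724, against 0.0357 and 0.0399. In SRSF3, the 456 nt exon had 0.0179 and 0.0623, against 0.0114 and 0.00928, and in SRSF2 the 104 nt exon had 0.078 and 0.167, against 0.0547 and 0.0667. In both, RBFOXi replicate 2 was more than 2 times RBFOXi replicate 1. The SRSF2 exon lies inside a listed retained intron, whose PSI was 0.109 and 0.0959 with RBFOXi, and 0.0595 and 0.0884 with SCRM, also higher without overlap. The 3 exons of SRSF4 lay between 0.0236 and 0.0652 with RBFOXi, and between 0.0144 and 0.0489 with SCRM. The 312 nt exon of TRA2A had 0.143 and 0.161 against 0.124 and 0.0893. The 90 nt exon of TRA2A, whose first codon is a stop, was the exception, at 0.0317 and 0.0204 with RBFOXi, and 0.034 and 0.0275 with SCRM. UGCAUG lay within 300 nt after 5 of the 10 exons and before 0 of them. The shares were 10.1% after and 9.96% before over all rarely included exons, and 8.27% and 7.98% over all exons. The 5 include both overlapping TRA2A exons, which have the same motif after them.

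Other regulators of RNA overlapped between the groups for most exons. The list of other splicing regulators and spliceosome proteins had 22 exons in 19 genes, 15 with a stop codon, 6 higher without overlap and 1 lower, and 0 with an adjusted p under 0.05 (limma, with 2 at an unadjusted p under 0.05). Beside these counts, 21.2% of all rarely included exons were higher without overlap and 10.7% lower. The 1 lower exon is the deepest of the list, that of SNRPD2 given above. The next 2 in depth overlapped between the groups. RBM39 (72 nt) had 0.0203 and 0.0338 with RBFOXi, and 0.0261 and 0.0233 with SCRM, and SF3B1 (56 nt) had 0.0153 and 0.0223 against 0.0565 and 0.0109. The hnRNP genes had 2 exons. HNRNPL (70 nt, with a stop codon) had 0.022 and 0.035 against 0.0199 and 0.0119, without overlap, and HNRNPC (163 nt) had 0.0118 and 0.0151 against 0.0092 and 0.0135. The single ribosomal protein exon, in RPS9 (172 nt, printed above up to its stop codon), had 0.0154 and 0.043 against 0.0104 and 0.0121, again with RBFOXi replicate 2 the highest. The retained intron around it had an intron PSI of 0.0167 and 0.0136 with RBFOXi, and 0.0116 and 0.0105 with SCRM, higher without overlap but not highest in RBFOXi replicate 2.

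In actin and adhesion genes, 17 of the 25 exons, in 18 genes, had a length divisible by 3 and no stop codon. Of all rarely included exons, 23.6% were of this class. ADD3 and ACTN1 belong here and were the 2 of the 25 with an adjusted p under 0.05 (limma). Beside these stand 3 of the 1031 tested rarely included exons and 0.0833% of all tested events. The list was made with earlier results of these data known, so nothing is read from this count. Without overlap, 3 exons of the list were higher and 6 lower. For all rarely included exons, the shares without overlap were 21.2% higher and 10.7% lower. The 5 CD44 exons, which are variable exons of the hyaluronan receptor, had a SCRM PSI between 0.00944 and 0.111 and overlapped between the groups in every case. The deepest, of 204 nt, had 0.0155 and 0.0203 with RBFOXi, and 0.0178 and 0.0181 with SCRM. TPM3 (79 nt) had 0.0124 and 0.0157 against 0.00918 and 0.0128. TNC (276 nt), a tenascin of the matrix, had 0.0135 and 0.017 against 0.0163 and 0.0194, and LAMB1 (258 nt), the 1 exon of the collagen and laminin list, had 0.00772 and 0.005 against 0.0509 and 0.0098. The 9 exons of microtubule and motor genes, 6 with a length divisible by 3 and no stop codon, were higher without overlap in 4 cases and lower in 0. They include the NUMA1 exon, at 0.051 and 0.0417 against 0.025 and 0.0269, and MAP4 (51 nt), at 0.017 and 0.0161 against 0.0144 and 0.0142. The surrounding NUMA1 intron, listed as retained, had an intron PSI of 0.14 and 0.136 with RBFOXi, and 0.109 and 0.133 with SCRM, higher without overlap like the exon.

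The other lists had 0 exons with an adjusted p under 0.05 in limma. Beside the 43.8% of all rarely included exons, a stop codon was present in 10 of 16 exons of chromatin genes, 9 of 14 of zinc finger genes, 9 of 11 of p53, glioma and apoptosis genes, and 16 of 29 of ubiquitin proteases and ligases. The counts were 13 of 33 for Rab and trafficking genes, 7 of 16 for solute carriers and 2 of 6 for the respiratory chain, and no difference between lists was tested. Over all rarely included exons, 21.2% were higher without overlap and 10.7% lower, against 14.3% and 16.5% of all tested events. The zinc finger genes were higher without overlap for 7 of 14 exons and lower for 0, and the Rab and trafficking genes for 10 and 1 of 33. For the remaining lists these counts were 2 and 0 for chromatin, 4 and 3 for ubiquitin genes, 2 and 0 for solute carriers, 1 and 2 for the respiratory chain, and 0 and 2 for the p53, glioma and apoptosis genes. Over these lists together, unadjusted p-values under 0.05 ran from 0 to 3 exons per list in either direction. Among all rarely included exons, 4.85% were higher and 3.2% lower at that threshold. In SMARCA4, the ATPase of SWI/SNF remodellers, the 99 nt exon had 0.043 and 0.0362 with RBFOXi, and 0.041 and 0.0435 with SCRM. VPS29 (40 nt), a retromer subunit, had 0.0784 and 0.1 against 0.0388 and 0.0644. Of the apoptosis genes, BCL2L1 (157 nt) had 0.009 and 0.0215 against 0.0133 and 0.0133. BIN1 (45 nt, UGCAUG from base 57 after it) had 0.00436 and 0.00286 against 0.0155 and 0.0092, and was lower without overlap. UQCRH (148 nt) of the respiratory chain had 0.0581 and 0.0501 against 0.0507 and 0.0481, SLC39A9 (141 nt), a zinc transporter, had 0.0259 and 0.0606 against 0.034 and 0.0231, and USP10 (121 nt), a deubiquitinase, had 0.0229 and 0.0236 against 0.0208 and 0.0188. ZNF410 (118 nt) had 0.0175 and 0.0165 against 0.0147 and 0.00619. Finally, PKM (117 nt) had 0.0883 and 0.164 against 0.0725 and 0.096.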

How the data were processed

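RNA-seq of 4 U87MG libraries (100 bp read pairs per the study's methods) was aligned uniquely by the authors with STAR 2.4.2a to hg19, and rMATS counted reads of the including and the skipping form of each event from UCSC known genes. The deposited values used are these unnormalized counts with the effective length of each form. Deposited p-values, FDR and inclusion differences hold the authors' own comparison, and none was used. PSI is the length-normalised inclusion count over the length-normalised total. The log2 odds (pseudocount 0.5) were compared with limma 3.58.1 in R 4.3.3, its variance trended on count depth, for events that had 5 or more counts per library, averaged 20 or more, and summed to at least 4 for each form. A call needed an adjusted p under 0.05, and 0.1 in PSI where stated. With 2 libraries per group an exact permutation test could not pass 0.05. Sequences, frames and annotation came from GRCh37 and GENCODE lifted to it. Scripts were tested on simulated data.

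The exons and the gene lists were chosen with earlier results of these data known. Exons were named for an adjusted p under 0.05, the 5 largest rises and falls without overlap, the 5 deepest, the 3 deepest of each list, the 2 nearest each PSI limit, the 3 with UGCAUG closest on each side, and genes the study followed up. All SR and TRA2 exons, the 12 smallest p-values, and the windows of 100 and 50 nt were added after the values were seen. Of the genes followed up or of known splicing in glioma, ABI1, FMNL3, FAM126A, FN1, RBFOX2, PTBP1 and PTBP2 held no such exon. Some exons that these rules name are not reported here. Alternatives are given in the closing section.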

Additional observations from a re-analysis of the deposited data

How the results depend on the processing

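The number of skipped exon events called at an adjusted p under 0.05 and a PSI change of 0.1 was 27. It was 1 with a pseudocount of 0.1, 44 with at least 1 count as the only filter, 52 by a quasi-binomial F test, 119 with the replicate block, and 1 to 69 as each library was left out. For the rarely included exons the count of 3 became 0, 7 and 19 with the pseudocount of 0.1, the quasi-binomial test and the block, and ranged from 0 to 9 as each library was left out, being 0 without either SCRM library. The quasi-binomial test was chosen after seeing the data. The labels do not say what the replicate numbers share, and deviations of same-numbered libraries correlated at 0.0944, so the block is not taken as a pairing. The cause of these shifts was not tested.

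The set of 1034 exons became 679 with at least 400 counts, and 733 to 1130 as each SCRM library was left out. With a SCRM library left out, the minimum was 100 counts in the remaining one. Of the 1034 exons, 648 stayed without SCRM replicate 2 and 940 without SCRM replicate 1. With the plain share of counts as PSI the set had 941 exons, of which 690 were among the 1034. The median RBFOXi PSI of 0.0368 became 0.0776 as a plain share of counts, and 0.0336 to 0.0389 by library. The share with UGCAUG after the exon (10.1%) became 8.12% at 200 nt, 15% at 500 nt, 54.2% over the intron, 5.32% at 100 nt and 27.7% for GCAUG. The share before it (9.96%) became 6.96%, 13.9%, 49.5%, 1.45% at 50 nt and 26.2%. The share with a stop codon (43.8%) became 47.7% under a PSI of 0.05. Both planned count-model tests were not run, since each deposited cell joins the counts of both replicates of a group and the unit could not be declared as counts.

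The rarely included exons had a median of 14 to 35 inclusion counts per library. What part depth plays in the number of calls was not tested.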
